A study of Mus musculus with 2 samples.

Results

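The genes described here bring glucose into the cell, carry lactate across the cell membrane and decide where pyruvate goes. They are the glucose transporter genes *Slc2a1* and *Slc2a3*, the lactate transporter genes *Slc16a1* and *Slc16a3*, the pyruvate dehydrogenase kinase genes *Pdk1*, *Pdk2*, *Pdk3* and *Pdk4*, and the genes of the mitochondrial pyruvate carrier, *Mpc1* and *Mpc2*. These 10 genes were taken by symbol from a table of 22156 genes. The rule itself uses no measured value, but the genes were chosen with earlier results of these data known. The table held RNA sequencing of primary chondrocytes of newborn mice on the C57BL/6 J background, cultured as a monolayer with no treatment named in the labels, with 1 library for each genotype, control and *Myl3*-KO. The knockouts were homozygous for a floxed *Myl3* and carried a Cre recombinase under the *Col2a1* promoter, which is active in chondrocytes. The paper describes the controls as littermates with the same floxed alleles and no Cre, whereas the labels give their genotype as WT. The labels give rib cartilage as the tissue of both libraries, while the methods describe cells taken from rib and articular cartilage. How many animals were pooled in a library was not stated. The comparison asks how the RNA of cells labelled as chondrocytes differs when *Myl3* is deleted. Here it is read for the genes that route fuel.

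Glucose crosses the plasma membrane through facilitative transporters, of which GLUT1 (*Slc2a1*) is the widespread form and GLUT3 (*Slc2a3*) the form of high affinity, and glycolysis turns it into pyruvate. Pyruvate is reduced to lactate and leaves the cell with a proton through the monocarboxylate transporters MCT1 (*Slc16a1*) and MCT4 (*Slc16a3*), or it enters mitochondria through a carrier built of MPC1 and MPC2. In the mitochondrion the pyruvate dehydrogenase complex turns it into acetyl-CoA, and the pyruvate dehydrogenase kinases switch that complex off by phosphorylation. Cartilage has no blood vessels, and its cells are known to live at low oxygen and to depend on glycolysis. *Slc2a1*, *Slc16a3* and *Pdk1* are among the textbook targets of the hypoxia-inducible factor HIF-1, while *Pdk4* is known for its induction by fasting and by PPAR receptors. The other genes described here were not sorted by their answer to low oxygen.

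The control library summed to 17612435 expected counts and the *Myl3*-KO library to 13477977. A floor of 3 counts corresponded to 0.170 and 0.223 CPM, the unit in which counts are scaled to a common library total. *Myl3* had 0 counts in both libraries, which allows up to these values and gives no check of the genotype. Of 9 chondrocyte markers, 4 (*Acan*, *Matn1*, *Matn3* and *Hapln1*) were at 0 in both libraries. *Col9a1* had 0 and 1 counts, *Comp* 1 and 2, *Col2a1* 30 and 27, *Col11a1* 121 and 99, and *Sox9* 866 and 480. Most of these markers thus do not bear out the labelled cell type, and the word chondrocyte here follows the labels. The 6 fibroblast markers summed to 14784 CPM (control) and 16897 CPM (*Myl3*-KO), of which *Col1a2* alone gave 12017 and 14039 CPM, with *Dcn* called lower (log2 ratio -1.64), *Pdgfra* called higher (0.61) and *Thy1* at 0 in both libraries. The part of the cell mixture in the differences below was not tested. The muscle, endothelial, immune, erythroid and adipocyte markers each summed to between 0 and 1.56 CPM. Fewer cells of a type and less RNA per cell cannot be told apart in such cultures.

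Differences between the libraries are given as the log2 ratio of CPM, *Myl3*-KO over control, with a 95% Clopper-Pearson interval that covers counting error only. A gene was called where its counts differed in a two-sided exact binomial test (Benjamini-Hochberg adjusted p under 0.05 over the 12431 genes tested) and its log2 ratio reached 0.5 in either direction, which is 1.41-fold. The test sets the reads of 2 libraries against each other and says nothing of the spread between mice or cultures, and no difference below has a replicate check. Where a coefficient of variation of 0.1 between cultures was assumed in edgeR's exact test, 0 of the 10 genes were called.

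All 10 genes were tested. In the *Myl3*-KO library, 3 were called lower, namely the importer *Slc2a1*, the lactate transporter *Slc16a1* and the kinase *Pdk1*, and 1 was called higher, the kinase *Pdk2*. Over all genes tested, 1.37% were called lower and 4.03% higher. Of the other 6 genes, none was called, and 5 of them had ratios below 0, as had the genes called lower. The median log2 ratio of the 10 genes was -0.22, against 0.02 over all genes tested. Among the 7494 genes with at least 300 counts in each library, 0.614% were called lower and 1.44% higher. Of the 8 described genes counted as deeply, 3 were called lower. *Pdk2*, the gene called higher, had 162 and 211 counts and is not among these 8.

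**Figure D1:**
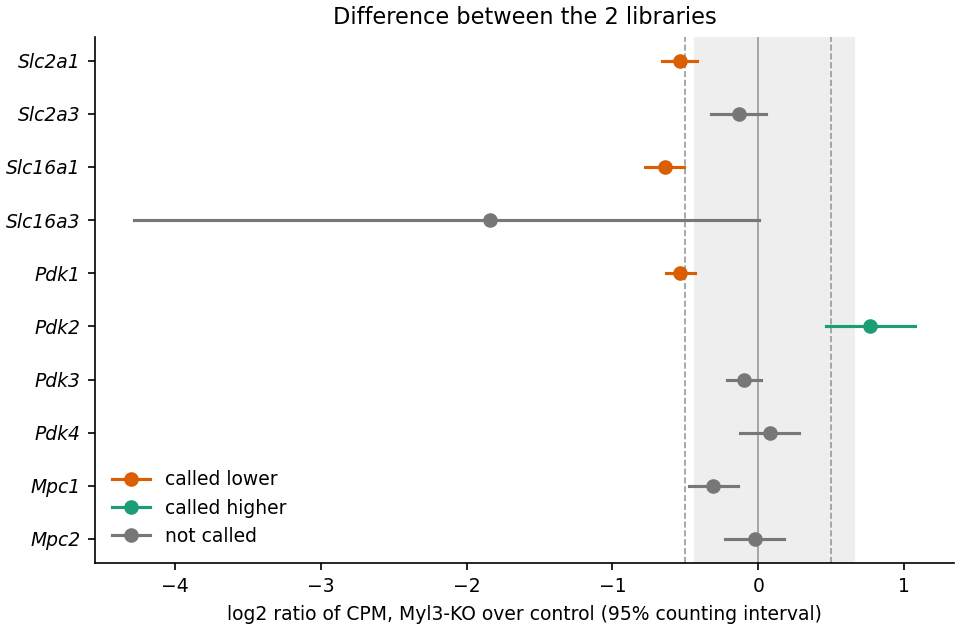
The log2 ratio of CPM (*Myl3*-KO over control, horizontal axis) of each gene with its 95% counting interval, 1 library per genotype. Dashed lines mark a log2 ratio of 0.5 in either direction and the grey band holds the middle of all genes tested, from the 5th percentile at -0.43 to the 95th at 0.65. The points of *Slc2a1*, *Slc16a1*, *Pdk1* and *Slc16a3* lie left of the band and that of *Pdk2* right of it. *Slc16a3*, which was not called, has by far the widest interval.

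The sequences just upstream of the 4 called genes are shown because 3 of these genes were lower together and *Slc2a1* and *Pdk1* are known HIF-1 targets. HIF-1 binds the core ACGTG or GCGTG. Windows of 250 bases before the first RefSeq start site of each gene (GRCm38.p6) were searched. They are given 5′ to 3′ along the gene, with every match to either core on either strand in capitals, and that of *Slc2a1* stops after 219 bases, where a match runs across the start of the GENCODE gene.
*Slc2a1*, chr4:119108495-119108713, plus strand: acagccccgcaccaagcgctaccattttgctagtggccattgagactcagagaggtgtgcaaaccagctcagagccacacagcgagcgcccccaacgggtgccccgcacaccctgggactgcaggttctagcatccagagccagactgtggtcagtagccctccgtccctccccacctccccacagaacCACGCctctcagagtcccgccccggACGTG
*Slc16a1*, chr3:104638414-104638663, plus strand: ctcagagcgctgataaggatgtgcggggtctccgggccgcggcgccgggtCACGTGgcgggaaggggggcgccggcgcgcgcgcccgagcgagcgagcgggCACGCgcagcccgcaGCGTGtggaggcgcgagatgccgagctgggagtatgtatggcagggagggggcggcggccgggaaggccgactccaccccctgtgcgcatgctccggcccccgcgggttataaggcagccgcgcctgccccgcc
*Pdk1*, chr2:71872974-71873223, plus strand: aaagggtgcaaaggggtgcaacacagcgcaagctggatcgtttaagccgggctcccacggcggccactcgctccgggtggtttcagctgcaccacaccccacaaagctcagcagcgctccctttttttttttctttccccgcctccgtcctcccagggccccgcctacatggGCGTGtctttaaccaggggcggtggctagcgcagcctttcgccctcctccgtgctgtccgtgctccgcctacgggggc
*Pdk2*, chr11:95041372-95041621, minus strand: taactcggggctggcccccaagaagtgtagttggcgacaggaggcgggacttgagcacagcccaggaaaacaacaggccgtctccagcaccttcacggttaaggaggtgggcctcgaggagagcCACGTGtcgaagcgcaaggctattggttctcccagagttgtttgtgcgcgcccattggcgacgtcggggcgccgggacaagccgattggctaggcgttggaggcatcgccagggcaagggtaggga

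The *Slc2a1* window held 2 matches, whose first bases lay 36 and 61 bases before the start site, and the *Pdk1* window 1, at 78 bases. The *Slc16a1* window held 4 and the *Pdk2* window 2, and in each of these windows a palindromic CACGTG counts as a pair of overlapping matches, one for either strand. A window was found for 9 of the 10 genes (not for *Slc2a3*), and 9 of these 9 held at least 1 match, whichever way the gene differed between the libraries. Matches were also frequent elsewhere, in 38.6% of all 32851 windows and in 57.7% of the windows of 9430 genes tested here. Matches thus lay beside genes called lower, the gene called higher and genes not called. The windows of the described genes had a GC content of 58.8% to 76.4%, against a median of 60.4% for the genes tested.

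Of the glucose transporters, *Slc2a1* (ENSMUSG00000028645, chr4:119108711-119137983 of GRCm38) had 1586 control counts and 835 *Myl3*-KO counts, which is 90.05 and 62.0 CPM. The level was thus 1.45-fold lower in the knockout library, with a log2 ratio of -0.54 (interval -0.66 to -0.42, adjusted p of the exact test 2.57e-17). The interval reaches past the limit of 0.5, so the size of the difference is not far from the line that makes it a call. Only 3.29% of the genes tested had a ratio as low or lower.

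*Slc2a3* (ENSMUSG00000003153, chr6:122727809-122801640) had 558 control counts and 389 *Myl3*-KO counts, with a log2 ratio of -0.13 (interval -0.33 to 0.05). It was not called. Its deposited FPKM values, which scale the reads by gene length as well, ran the other way, from 9.28 to 10.05, a log2 ratio of 0.11. The counts and FPKM of a library together imply the length the authors divided by, and for *Slc2a3* this was 3414 bases in the control but 2872 bases in *Myl3*-KO. *Slc2a1*, by comparison, had implied lengths of 3216 and 3177 bases. A gap of 10% or more between the libraries was found in 3.54% of the 7494 genes with at least 300 counts in each. GENCODE lists 8 transcripts of *Slc2a3*, and the direction of this gene depends on which deposited value is read.

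Beside these, 9 further genes of the *Slc2a* family summed to 4.87 FPKM (control) and 6.25 FPKM (*Myl3*-KO). In FPKM, *Slc2a1* made up 66.4% of the summed control level of the 11 genes and 54.5% of the *Myl3*-KO level, and *Slc2a3* 22.0% and 28.1%. The sum itself was 42.15 FPKM in the control library against 35.8 in the other. Next came *Slc2a8*, an intracellular transporter, with 3.56 and 4.22 FPKM. *Slc2a13*, a myo-inositol transporter, was the 1 of 4 tested that was called, higher in *Myl3*-KO but on 13 and 23 counts (log2 ratio 1.21, interval 0.17 to 2.31), and *Slc2a4*, the insulin-responsive form of fat and muscle, had 0 and 1 counts.

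The lactate transporters were unequal in level in both libraries. *Slc16a1* (ENSMUSG00000032902, chr3:104638668-104658462) stood at 77.5 CPM on 1365 control counts and at 49.7 CPM on 670 *Myl3*-KO counts. This was a 1.56-fold lower level in the knockout, with a log2 ratio of -0.64 (interval -0.78 to -0.51, adjusted p of the exact test 3.62e-20). This was the one gene of those called lower whose whole interval lay past the limit of 0.5, and 2.40% of the genes tested had a ratio as low.

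*Slc16a3* (ENSMUSG00000025161, chr11:120948480-120960868) encodes the exporter that strongly glycolytic cells are known for, yet it had only 14 control counts and 3 *Myl3*-KO counts, or 0.795 and 0.223 CPM. Its log2 ratio of -1.84 had an interval from -4.28 to 0.0048, and it was not called (adjusted p of the exact test 0.111). At this depth neither a difference nor its absence could be shown. Per length, *Slc16a1* stood at 17.51 FPKM and *Slc16a3* at 0.18 in the control, and at 11.23 and 0.05 in *Myl3*-KO. Over the 10 *Slc16a* genes examined, *Slc16a1* accounted for 75.2% of the summed FPKM in the control and 69.8% in *Myl3*-KO.

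MCT1 and its relatives reach the membrane with a chaperone, basigin (*Bsg*) or embigin (*Emb*). Both chaperone genes had ratios below 0 that fell short of the limit. *Bsg* went from 16304 to 9550 counts (log2 ratio -0.39, interval -0.42 to -0.35), and *Emb* from 607.96 to 337.97 (-0.46, interval -0.66 to -0.27). Of the 10 genes in this list, 7 were tested and 1 was called lower, *Slc16a6*, on 106 and 54.45 counts, with a log2 ratio of -0.58 (interval -1.09 to -0.10).

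The 4 pyruvate dehydrogenase kinase genes differed from one another. *Pdk1* (ENSMUSG00000006494, chr2:71873224-71903858), a form induced by low oxygen, gave 2361 control and 1248 *Myl3*-KO counts, or 134 and 92.6 CPM. The knockout level was 1.45-fold lower, a log2 ratio of -0.53 (interval -0.63 to -0.43, adjusted p of the exact test 4.17e-25). As with *Slc2a1*, the interval spans the limit of 0.5.

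*Pdk2* (ENSMUSG00000038967, chr11:95026258-95041354), a widely expressed form, had 162 control counts but 211 counts in the smaller *Myl3*-KO library, or 9.20 and 15.7 CPM. The knockout level was 1.70-fold higher, with a log2 ratio of 0.77 (interval 0.46 to 1.07, adjusted p of the exact test 3.45e-06). The lower end of this interval also lies inside the limit. This gene stood at the 96.3rd percentile of the ratios of all genes tested.

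*Pdk3* (ENSMUSG00000035232, chrX:93764607-93832201) had 1482 and 1059 counts (log2 ratio -0.10, interval -0.21 to 0.02), and *Pdk4* (ENSMUSG00000019577, chr6:5483351-5496309) had 447 and 361 counts (0.08, interval -0.13 to 0.28). Neither was called, and these intervals hold no difference beyond 0.28 on the log2 scale. *Bckdk*, the related kinase of branched-chain ketoacid dehydrogenase, had a log2 ratio of 0.10 (interval -0.03 to 0.23).

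In FPKM the 4 kinase genes summed to 77.0 (control) and 70.1 (*Myl3*-KO). *Pdk3* was the most abundant in both libraries, with 51.7% and 53.0% of the sum. The share of *Pdk1* was 33.6% in the control and 25.5% in *Myl3*-KO, while that of *Pdk2* was 5.32% and 9.94% and that of *Pdk4* 9.45% and 11.6%. The kinases are known to differ in activity, and these are shares of transcripts, not of enzyme.

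**Figure D2:**
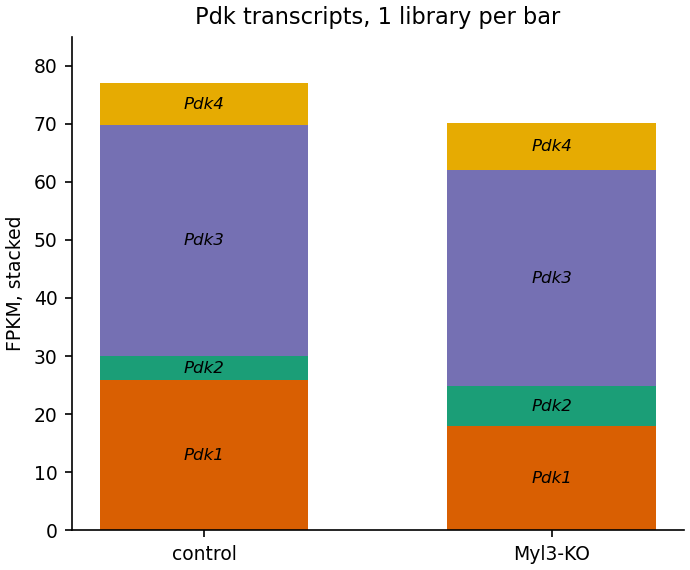
Stacked FPKM of *Pdk1*, *Pdk2*, *Pdk3* and *Pdk4* (vertical axis) in the control and the *Myl3*-KO library, 1 library per bar and so without error bars. The bars reach 77.0 and 70.1 FPKM, *Pdk3* fills the largest part of both, and the *Pdk1* segment shrinks from 25.85 to 17.86 FPKM while the *Pdk2* segment grows from 4.10 to 6.97.

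The genes of the mitochondrial pyruvate carrier differed less. *Mpc1* (ENSMUSG00000023861, chr17:8282904-8297661) had 759 control and 469 *Myl3*-KO counts, or 43.1 and 34.8 CPM. Its log2 ratio was -0.31 (interval -0.48 to -0.14, adjusted p of the exact test 0.00133). This difference exceeded the counting error but not the limit of 0.5. *Mpc2* (ENSMUSG00000026568, chr1:165460637-165481214) had 469 and 353 counts, or 26.6 and 26.2 CPM, and a log2 ratio of -0.02 (interval -0.23 to 0.18). The carrier is known to need both subunits.

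Ordered by level per length, *Mpc1*, *Pdk3* and *Slc2a1* led in the control library with 44.99, 39.78 and 28.00 FPKM, followed by *Mpc2* with 25.98 and *Pdk1* with 25.85. The Poisson intervals of *Mpc1* and *Pdk3* overlapped, and those of *Slc2a1*, *Mpc2* and *Pdk1* all overlapped one another. In *Myl3*-KO the order at the top was *Pdk3* with 37.15 FPKM, *Mpc1* with 36.32 and *Mpc2* with 25.55, ahead of *Slc2a1* with 19.50 and *Pdk1* with 17.86. There the intervals overlapped for *Pdk3* and *Mpc1*, *Slc2a1* and *Pdk1*, *Slc16a1* and *Slc2a3*, and *Pdk4* and *Pdk2*. *Slc16a1*, *Slc2a3*, *Pdk4*, *Pdk2* and *Slc16a3* came last, in this order, in both libraries.

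**Figure D3:**
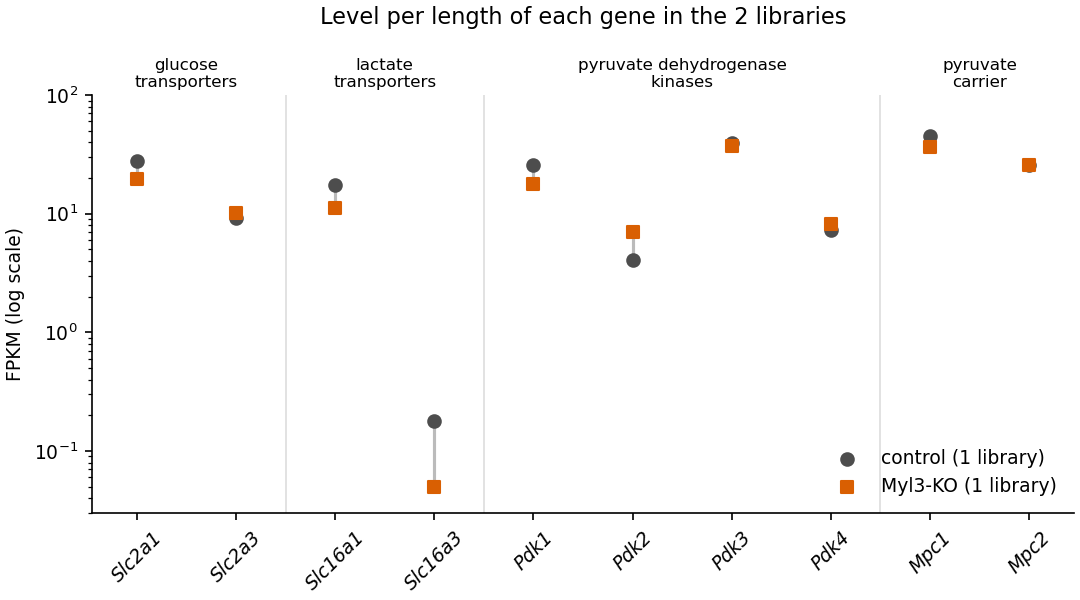
FPKM of each gene (vertical axis, log scale) in the control library (grey circles) and the *Myl3*-KO library (orange squares), grouped by role, 1 library per genotype. *Slc16a3* lies far below the other genes in both libraries, at 0.18 and 0.05 FPKM. *Slc2a3*, which is a little higher in *Myl3*-KO here, is a little lower by CPM.

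Ratios of 2 genes within a library do not depend on how the libraries are scaled. Of 9 pairs within the families, 7 changed between the libraries by more than their counting interval. The kinase pairs share genes, so they are not independent of each other or of the calls above. How often pairs of other genes change in this way was not computed. *Pdk1* counts were 14.6 times those of *Pdk2* in the control and 5.91 times in *Myl3*-KO, a change to 0.406 of the control ratio (interval 0.325 to 0.506), the largest of the 7. The ratio of *Pdk1* to *Pdk3* changed to 0.740 (interval 0.665 to 0.822) and that of *Pdk1* to *Pdk4* to 0.655 (interval 0.559 to 0.767). The ratios of *Pdk2* to *Pdk3* and to *Pdk4* rose to 1.82 (interval 1.46 to 2.29) and 1.61 (interval 1.25 to 2.08).

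Outside the kinases, the ratio of *Slc2a1* to *Slc2a3* changed to 0.755 (interval 0.645 to 0.884) in counts and to 0.643 in FPKM. That of *Mpc1* to *Mpc2* changed to 0.821, with an interval of 0.683 to 0.987 that ends just short of 1. For *Pdk3* to *Pdk4* (0.885, interval 0.752 to 1.04) and for *Slc16a1* to *Slc16a3* (2.29, interval 0.636 to 12.5) the intervals held 1. These intervals, too, compare reads and carry no spread between cultures.

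**Figure D4:**
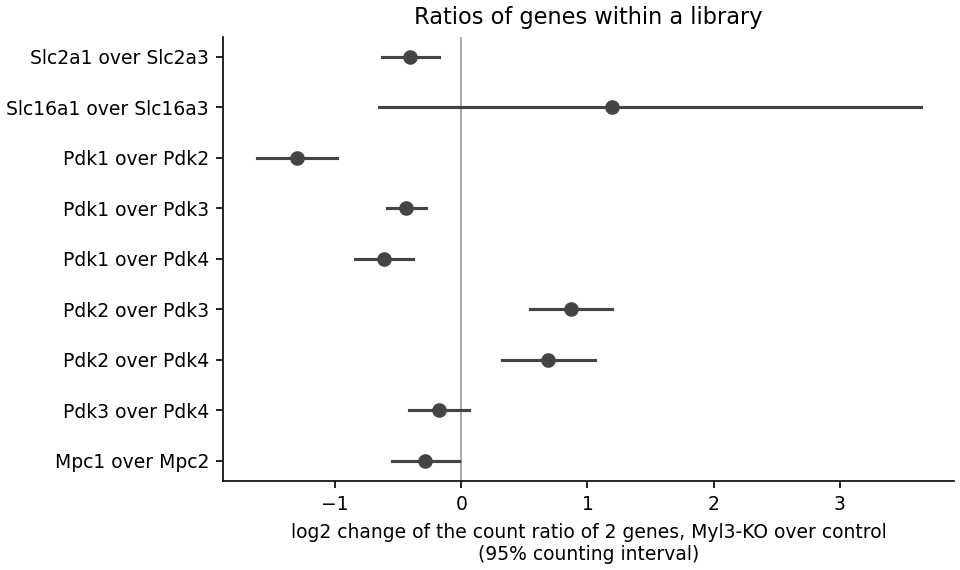
Log2 change of the count ratio of 2 genes of a family (horizontal axis, *Myl3*-KO over control) with its 95% counting interval, 1 library per genotype. The 3 ratios with *Pdk1* on top lie left of 0 and the ratios of *Pdk2* to *Pdk3* and to *Pdk4* right of it. The intervals of *Pdk3* over *Pdk4* and *Slc16a1* over *Slc16a3* cross 0.

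Genes on either side of these steps were then set beside them. Hexokinase 2 (*Hk2*), which traps glucose in the cell, was called lower, on 1490 control and 638 *Myl3*-KO counts, with a ratio of -0.84 (interval -0.97 to -0.70). *Hk1* stood at -0.10 (interval -0.19 to -0.01). *Txnip*, whose product lowers glucose uptake, had 2256 and 1992 counts (0.21, interval 0.12 to 0.29) and was not called. Of the 6 regulators of glucose uptake tested, *Hk2* was the 1 called.

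*Ldha*, which encodes the lactate dehydrogenase subunit that favours lactate formation, was called lower, from 1002.24 to 645.99 FPKM (log2 ratio of CPM -0.63). *Ldhb* had 0 counts in both libraries. *Pkm*, the pyruvate kinase gene, stood at -0.20 (interval -0.22 to -0.18) and was not called.

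Of the 8 genes of the pyruvate dehydrogenase complex, on which the *Pdk* products act, and of its phosphatases, 0 were called, and their median log2 ratio was -0.09. *Pdha1*, the subunit that the kinases phosphorylate, had a ratio of -0.07 (interval -0.13 to -0.02), *Pdhb* one of -0.37 (interval -0.45 to -0.29), and the phosphatase genes *Pdp1* and *Pdp2* ratios of 0.04 (interval -0.15 to 0.23) and 0.05 (interval -0.14 to 0.24). Of 16 genes of the tricarboxylic acid cycle, which takes up the acetyl-CoA, 0 were called, with a median of -0.08. At the shares over all genes tested, 1.37% lower and 4.03% higher, few or no calls are expected in lists of this size. Other enzymes that use or make pyruvate went apart. The malic enzyme gene *Me2* was called lower (1099 and 579 counts, log2 ratio -0.54), *Me3* higher on 23 and 41 counts (1.22), and the alanine transaminase gene *Gpt* higher on 82 and 95 counts (0.60), among 7 tested. In the pyruvate metabolism pathway of the deposited table, 3 of 31 genes tested were called lower (*Ldha*, *Me2* and the acylphosphatase gene *Acyp2*) and 1 higher (*Me3*).

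Several genes known to answer to low oxygen were lower as well. Of 10 such targets outside the described genes, 9 were tested, 4 were called lower and 0 higher. Over all genes tested, 1.37% were called lower and 4.03% higher. The targets called lower were *P4ha1* and, on fewer counts, *Car9* (120 and 52), *Egln3* (55 and 20) and *Ankrd37* (178 and 41). The median log2 ratio of the 9 was -0.53, and the list summed to 761 CPM (control) and 633 CPM (*Myl3*-KO). *Ddit4* and *Kdm3a* had ratios of 0.07 (interval -0.04 to 0.19) and 0.06 (interval -0.01 to 0.13), and *Adm* had 1 control count and 0 *Myl3*-KO counts. The list was written with some of these values known. Among 8 oxygen-sensing genes, *Egln3*, which is in both lists, was the 1 called, and the median log2 ratio was -0.10. *Hif1a* had 3161 and 2026 counts (log2 ratio -0.26, interval -0.34 to -0.17), and *Egln1*, which encodes the main oxygen-sensing hydroxylase, 2480 and 1364 (-0.48, interval -0.57 to -0.38). *Arnt*, which encodes the partner subunit of HIF-1, lay on the other side, with 1579 and 1468 counts (0.28, interval 0.18 to 0.38), and was not called. The part of oxygen in the lower levels of *Slc2a1*, *Slc16a1* and *Pdk1* was not tested, and with 1 library per genotype other differences between the cultures cannot be told apart from the genotype.

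Of the 11 regulators and PPAR targets that are known beside *Pdk4*, 7 were tested and 0 were called, with a median log2 ratio of 0.16. With so few genes, 0 calls is also near the shares over all genes tested. *Cpt1a*, the gatekeeper of fatty acid entry into mitochondria, had 481 and 470 counts (0.35, interval 0.17 to 0.54), and *Angptl4* had 14 counts in each library. *Ppara* and *Ppargc1a* were at 0 in both.

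**Figure D5:**
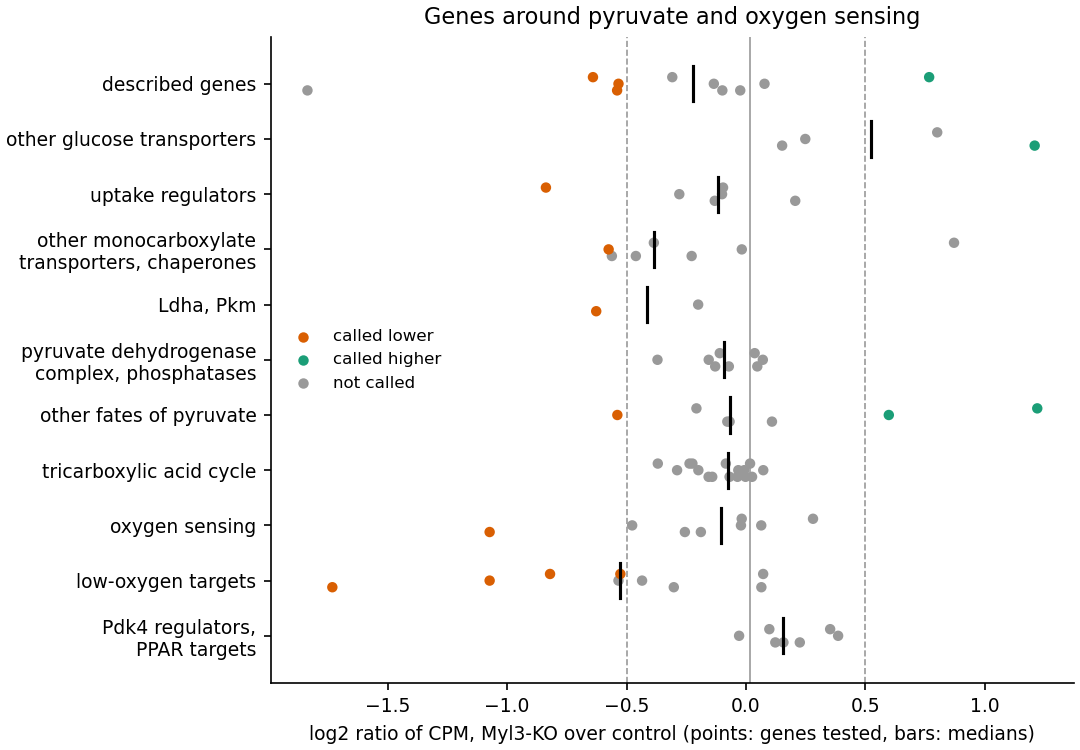
Log2 ratio of CPM (*Myl3*-KO over control, horizontal axis) of every gene tested in each list, 1 point per gene, with a black bar at the median of the list. The solid line marks the median of all genes tested, 0.02, and dashed lines a log2 ratio of 0.5 in either direction. Points called lower are found among the described genes, *Hk2*, *Slc16a6*, *Ldha*, *Me2* and the oxygen-related lists. All points of the pyruvate dehydrogenase complex and the tricarboxylic acid cycle lie within the dashed lines.

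All 10 had whole-number counts in both libraries. Antisense genes overlap *Slc2a1* and *Pdk2*, and a transcript on the other strand overlaps *Mpc1*. On the same strand, GENCODE places the microRNA gene *Mir1957a* within *Slc2a1*, the processed pseudogene *Gm4482* within *Slc2a3*, *Gm43581* and *Gm43585* within *Slc16a1*, and *Gm37860* within *Mpc2*. These overlapping genes were not analysed here. The strand used in counting is not given in the sources used here, so reads of the partners on the other strand could not be told apart. Of the 31-base words of each gene's GENCODE transcripts, 0% to 2.33% also occurred in transcripts of other genes for 9 of the genes. For *Mpc1* the share was 12.6%, all of it with the pseudogene *Mpc1-ps*, so reads of this gene are less certain.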

How the data were processed

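RNA sequencing covered 1 control and 1 *Myl3*-KO library of primary chondrocytes. For each gene the authors deposited an expected count, not normalized, and an FPKM value, scaled to gene length and library. Poly(A) RNA was captured on oligo beads according to the methods, while the labels name a SMARTER kit. The submitters' processing notes name the builds GRCm38 and mm10, and the aligner and counting tool are not given in the sources used here. The control columns are headed NC and were read as control because the others are headed KO.

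CPM used the summed counts of each library, and values under 3 counts entered ratios as 3. Rounded counts of 12431 genes (a sum of 10 or more across the libraries) were compared across all genes by a two-sided exact binomial test with Benjamini-Hochberg adjustment, since 1 library per genotype leaves no residual degrees of freedom for a replicated model. Ratios of 2 genes have exact conditional intervals of the odds ratio, and levels exact Poisson intervals. Intervals cover counting error only. The comparison was tested on simulated counts that held counting error only. They had no spread between cultures, so that test does not bear on how such spread affects the calls. Genes and lists were chosen with earlier results of these data known. Named are the 10 genes, genes called in the lists, and list genes whose role is needed to read them. Coordinates are from GENCODE M21 (GRCm38), and upstream sequences from RefSeq (GRCm38.p6). Alternatives were TMM factors (edgeR 4.0.16), DESeq2 1.42.0 size factors, other filters and limits, edgeR's exact test with an assumed coefficient of variation, 1 added count and FPKM ratios. Python 3.11.15, scipy 1.17.1 and R 4.3.3 were used.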

Additional observations from a re-analysis of the deposited data

How the results depend on the processing

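The 3 genes called lower (*Slc2a1*, *Slc16a1* and *Pdk1*) and the 1 called higher (*Pdk2*) were called under 6 of 10 alternatives on the calls: TMM factors, DESeq2 size factors, both filters on low counts, a limit of 0.3 (which added *Mpc1*) and 1 added count. Where the log2 ratio had to reach 1, 0 were called lower and 0 higher. For the genes called as reported this is by construction, since their ratios are smaller than that limit. *Slc16a3*, at -1.84, passed the limit of 1 but not the exact test (adjusted p 0.111). With an assumed coefficient of variation of 0.1, 0.2 or 0.4, 0 were called in either direction, and at 0.1 the adjusted p of edgeR's exact test was 0.437 for *Slc2a1*, 0.224 for *Slc16a1*, 0.437 for *Pdk1* and 0.222 for *Pdk2*. Over all genes tested, 501 were called higher and 170 lower as reported, 1146 and 728 at a limit of 0.3, 143 and 49 at a limit of 1, and 41 and 20, 3 and 1, and 1 and 0 at the assumed coefficients of 0.1, 0.2 and 0.4. The deposited FPKM values reversed *Slc2a3*, to a log2 ratio of 0.11, and moved the ratio of *Slc2a1* to *Slc2a3* to 0.643. The implied length of *Slc2a3* differs between the libraries, and the cause of that was not tested. The changes of the other 8 ratios within families stayed inside their counting intervals with FPKM. Depth limits *Slc16a3*, with 14 and 3 counts. No paired analysis was possible because each genotype has 1 library.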
